A study of Mus musculus with 15 samples.

Results

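The cytochrome P450 genes were described in 15 mouse liver tumors. They were chosen by name alone, as all array probes, other than controls, whose gene symbol starts with Cyp, a family number and a letter, or is Cyp51. This gave 98 genes in 40 subfamilies, measured by 122 of the 55681 probes of the array. RNA of 15 tumors from 10 mice was hybridized to 1-colour Agilent mouse arrays, with 5 tumors in each of 3 groups. The hepatocellular carcinomas (HCC) of p53f/f mice came from animals with floxed Trp53 alleles and no liver deletion, which served as controls. The p53LKO HCC and the p53LKO intrahepatic cholangiocarcinomas (ICC, tumors with bile duct features) came from mice in which Trp53 was deleted in the liver. All mice of the 3 groups had received carbon tetrachloride (CCl4) for 16 weeks at 0.5 µl per g body weight, and no untreated liver was measured. All mice were kept on a C57/BL6J background and treated from 6 weeks of age. The transcriptomes are described as those of male mice, whereas the labels give neither the sex nor the age at which a tumor was taken. The authors report that tumors formed later in p53f/f than in p53LKO mice. Age at collection may thus differ with genotype, and these data cannot tell age and genotype apart. The promoter that drives Cre is not given in the sources used here. Tumors 3717 T1 and 3717 T2 of the p53f/f group came from the same mouse, and 4 mice gave both an HCC and an ICC. The replicates are single tumors, so that p-values measure the spread between these tumors.

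Cytochromes P450 are heme enzymes that insert an oxygen atom into their substrates, with electrons passed on by P450 oxidoreductase or, in mitochondria, by ferredoxin. In the liver, families 1 to 3 mainly oxidize drugs and other foreign compounds, family 4 hydroxylates fatty acids, and others build or break down bile acids, steroids, retinoic acid and vitamin D. Many are used in only one zone of the liver lobule, several differ between male and female mice, and nuclear receptors switch them on in response to their ligands. CCl4 itself is turned into its toxic radical mainly by Cyp2e1 of the hepatocytes around the central vein.

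Sequences of 2 kinds are shown because they set how the values can be read. Related P450 genes are so alike that 60-base probes could cross-hybridize. For 8 of the 98 genes a probe shared at least 40 aligned bases, most of them matching, with a probe of another gene or unnamed transcript. Only probes of the array were compared with each other, so a related transcript without a probe could not be found. The other genes are therefore not shown to be free of cross-hybridization. A Cyp4a10 probe differed from a Cyp4a31 probe at 6 of 60 aligned bases, and a Cyp2c67 probe from a Cyp2c68 probe at 4 of 59. A stretch of 30 bases of each pair, with 4 and 2 of these differences in capitals, reads as follows:
Cyp4a10: gtcaccttCcctgatggaCgCtctttaccC
Cyp4a31: gtcaccttTcctgatggaTgTtctttaccT
Cyp2c67: acAcagtcccagAaattccatctatattcc
Cyp2c68: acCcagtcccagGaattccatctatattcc
Whether these probes read the transcripts of the related gene was not tested.

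The second set are promoters of P450 genes, called and not called, whose ICC values are given further on, taken from RefSeq (build GRCm38.p6), which held 82 promoters of 72 of the P450 genes. Each was searched from 250 bases before to 50 after the start of the transcript, on both strands, for CAAAGTCCA, a sequence of the kind bound by the hepatocyte factor HNF4A. It was in 8 of the 82 P450 promoters (9.76%) and in 156 of all 32851 promoters (0.475%), and all 8 lay 64 to 125 bases before the start, in Cyp2c65, Cyp2c67, Cyp2c68, Cyp2c70, Cyp3a11, Cyp3a16, Cyp3a41b and Cyp8b1. The 250 bases before the start of 3 of them, with the motif in capitals, were at chr19:40187287-40187536 (Cyp2c70, which makes muricholic acids in the mouse), chr5:145879855-145880104 (Cyp3a11, a main drug-oxidizing enzyme) and chr9:121916306-121916555 (Cyp8b1, the sterol 12-alpha-hydroxylase of cholic acid synthesis), all on the minus strand:
Cyp2c70: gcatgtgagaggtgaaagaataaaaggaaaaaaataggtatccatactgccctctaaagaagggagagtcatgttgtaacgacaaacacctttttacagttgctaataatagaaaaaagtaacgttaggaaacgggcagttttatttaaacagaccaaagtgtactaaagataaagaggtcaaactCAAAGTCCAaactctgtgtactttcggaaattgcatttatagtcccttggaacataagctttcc
Cyp3a11: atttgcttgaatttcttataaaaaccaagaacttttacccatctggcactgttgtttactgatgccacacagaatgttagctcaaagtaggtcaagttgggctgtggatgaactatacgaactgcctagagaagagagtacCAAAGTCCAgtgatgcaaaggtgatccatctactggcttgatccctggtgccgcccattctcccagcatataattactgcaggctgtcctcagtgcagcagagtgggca
Cyp8b1: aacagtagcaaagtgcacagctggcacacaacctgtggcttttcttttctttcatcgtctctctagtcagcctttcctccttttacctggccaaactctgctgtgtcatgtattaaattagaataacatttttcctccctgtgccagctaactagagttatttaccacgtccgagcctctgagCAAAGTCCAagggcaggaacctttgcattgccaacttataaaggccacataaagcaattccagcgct
TATAAA, the core of the TATA box, was in 30 of the 82 P450 promoters (36.6%) and in 13.6% of all promoters. All 5 Cyp2d genes with a promoter in the table held it, here shown for Cyp2d9 at chr15:82452127-82452376 on the plus strand and Cyp2d26 at chr15:82794246-82794495 on the minus strand, where it lies on the opposite strand and so reads TTTATA:
Cyp2d9: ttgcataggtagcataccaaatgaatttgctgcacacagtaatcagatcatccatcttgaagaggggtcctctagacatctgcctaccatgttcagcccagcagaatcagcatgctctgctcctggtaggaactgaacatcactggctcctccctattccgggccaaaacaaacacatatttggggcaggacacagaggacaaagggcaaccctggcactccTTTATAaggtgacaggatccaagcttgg
Cyp2d26: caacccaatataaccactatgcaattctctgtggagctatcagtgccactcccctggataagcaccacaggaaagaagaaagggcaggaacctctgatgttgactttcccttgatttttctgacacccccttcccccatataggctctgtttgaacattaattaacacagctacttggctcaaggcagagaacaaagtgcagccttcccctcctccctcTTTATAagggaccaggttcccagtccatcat
GCGTG, the core of the site bound by the Ah receptor, was in 17 P450 promoters (20.7%), against 32.4% of all promoters. These matches describe the letters in the window and not the use of a site.

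Values are given as levels, the log2 of the background-subtracted signal minus the 75th percentile of the same array, so that 1 unit is a 2-fold difference and 0 is the level of a probe at that percentile. Where a gene had several probes, the one with the highest mean level stands for it, and levels of different genes are not comparable because each probe has its own brightness. Of the 98 P450 genes, 57 were well above background on all 15 arrays, 7 on none, and 13 on fewer than 3 arrays of every group, so that these 13 were not tested in either comparison. Between 37.0% and 70.1% of all probes of an array were above background. The p53f/f HCC had 78 to 88 P450 genes above background, the p53LKO HCC 69 to 86 and the ICC 63 to 70. The share of probes above background also split by the row of the slide, with 55.1% to 70.1% on the 8 arrays of row 1 and 37.0% to 47.0% on the 7 of row 2. All p53f/f HCC were in row 1 and all ICC in row 2, so that row and group cannot be told apart for them. Of the p53LKO HCC, the 3 in row 1 had 82 to 86 P450 genes above background, and the 2 in row 2, 3976 T1 and 5283 T7, had 79 and 69. The Trp53 probe read -1.27 to -0.68 in the controls, -3.86 to -2.75 in p53LKO HCC, without overlap with the controls, and -4.19 to -2.31 in ICC (not above background on 1 p53LKO HCC and 3 ICC arrays), but its annotated position lies on chromosome 17 and not at the Trp53 gene, so it is a weak check of the labels. The Y-linked genes Ddx3y and Eif2s3y were above background on all 15 arrays, and Xist on 1 array for 1 of its 2 probes, that of p53LKO HCC 5283 T7.

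The tissue of the labels was checked against its markers. The summed level of 8 hepatocyte markers such as Alb was 11.52 to 12.36 in p53f/f HCC, 11.03 to 11.59 in p53LKO HCC and 9.31 to 10.55 in ICC, and that of 8 bile duct markers such as Krt19 was 1.74 to 4.76, 2.28 to 3.36 and 6.04 to 7.16. The ICC thus kept a hepatocyte signal, lowest in tumor 3733 T3, where Alb was 6.0 against 7.64 to 8.89 in the other ICC. The p53f/f tumor 3717 T2 had the highest bile duct marker sum of the HCC, 4.76, and 3716 T1 a sum of T and B cell markers of 9.26 against 2.23 to 3.17 elsewhere. These are bulk samples, in which fewer cells of a type and less RNA per cell cannot be told apart.

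**Figure D1:**
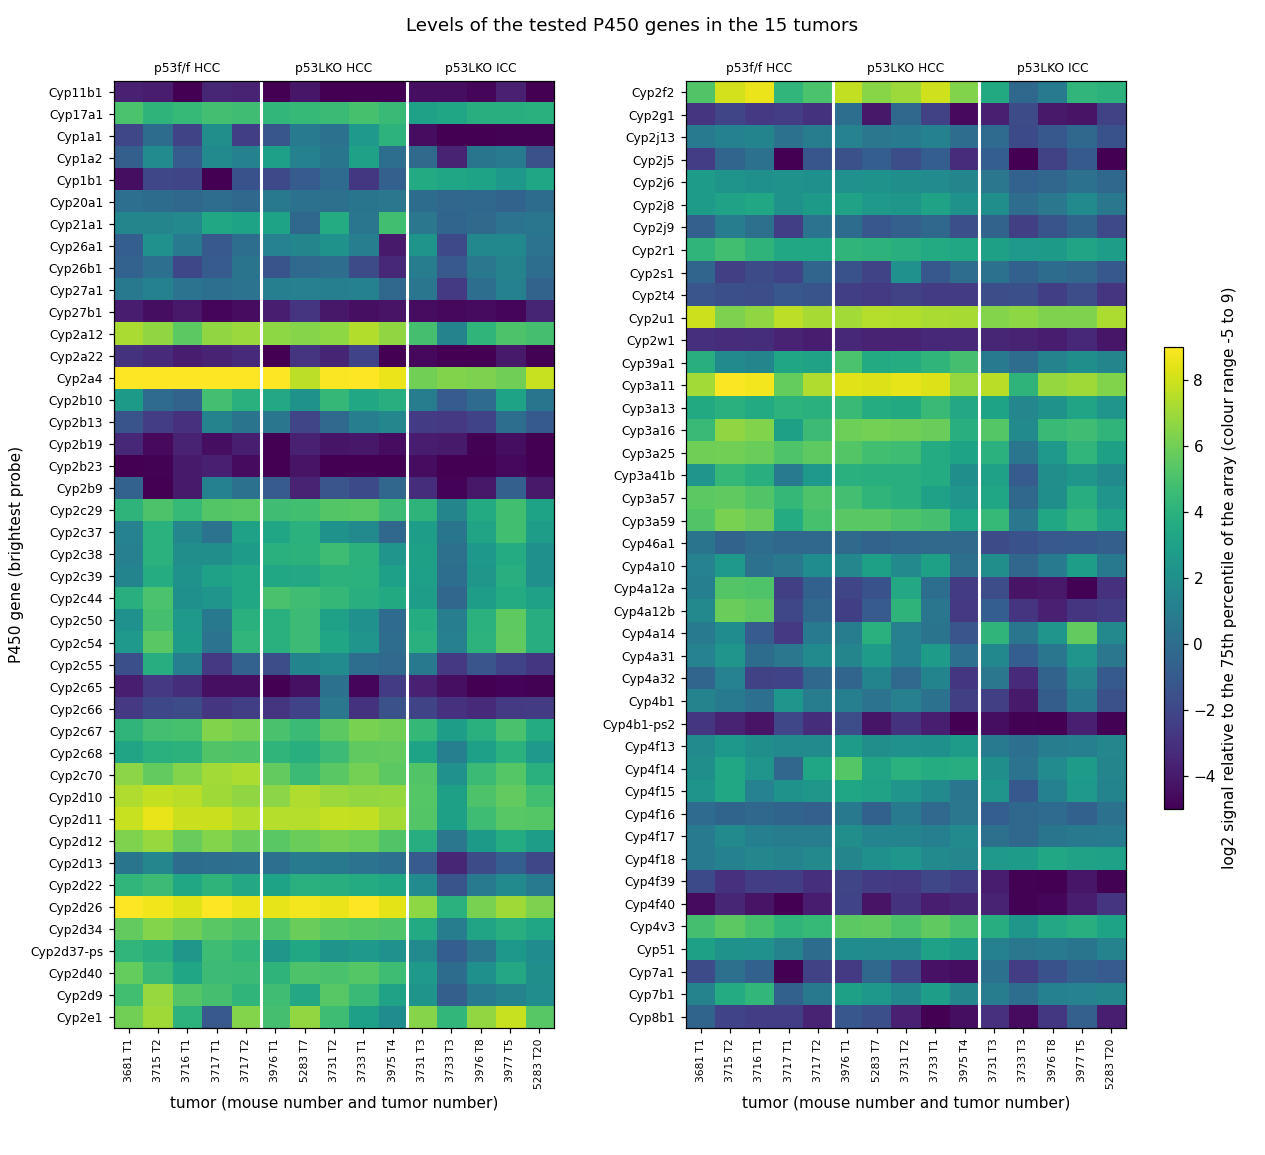
Levels (log2 signal relative to the 75th percentile of the array) of the tested P450 genes, rows, in the 15 tumors, columns, with white lines between the 3 groups and a colour range of -5 to 9. The ICC columns are darker than the p53LKO HCC columns for most rows, tumor 3733 T3 above all, whereas Cyp1b1 is brighter in all 5 ICC.

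The first comparison asked how the P450 genes differ between HCC with and without p53. Few did. Of the 85 genes tested, 1 was higher in p53LKO HCC (1.18%) and 7 were lower (8.24%), where a gene counted as higher or lower at a Benjamini-Hochberg adjusted p under 0.05 from limma and a difference over 2-fold. Among all 16849 genes tested 5.42% were higher and 9% lower, so the P450 share of lower genes was near the background. The 5 p53f/f tumors came from 4 mice, and 3 genes were lower and 2 higher when the 2 tumors of mouse 3717 were averaged or when either of them was left out. The median log2 fold change was 0.15 for the P450 genes and 0.09 for all genes. Of the 85, 80 were above background on at least 3 arrays of both groups, and 5 of the 7 lower genes were among them.

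Cyp39a1, the 7-alpha-hydroxylase of 24-hydroxycholesterol, was the gene that rose. Its levels were 3.79, 1.65, 1.43, 3.31 and 3.05 in p53f/f HCC (tumors 3681 T1, 3715 T2, 3716 T1, 3717 T1 and 3717 T2, the order used throughout), against 5.03, 3.58, 3.67, 4.14 and 4.85 in p53LKO HCC (3976 T1, 5283 T7, 3731 T2, 3733 T1 and 3975 T4). The ranges overlapped only through 3681 T1, which lay above 5283 T7 and 3731 T2. The log2 fold change was 1.61 (SE 0.49, adjusted p = 0.0276 from limma). The call was lost in 13 of 25 alternatives (adjusted p up to 0.24), among them those with the slide or the row of the slide as a block (1.55 and 1.58, adjusted p = 0.0643 and 0.0749) and those without 3715 T2, 3716 T1, 3976 T1 or 3975 T4 (1.31 to 1.46).

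The genes that fell included 2 of 7 Cyp3a genes, enzymes that oxidize drugs and steroids. Cyp3a25 read 5.97, 6.03, 5.85, 5.13 and 5.53 in the controls and 5.25, 4.77, 4.65, 3.60 and 3.12 in p53LKO HCC. Only 3976 T1 reached the lowest control, 3717 T1. It fell by 1.42 on the log2 scale (SE 0.39, adjusted p = 0.0169 from limma), a call lost in 5 of 25 alternatives (adjusted p up to 0.216). The related Cyp3a57 fell by 1.51 (SE 0.43, adjusted p = 0.0212), a call lost in 7 of 25 alternatives. The other 5 Cyp3a genes differed by -0.33 to 0.65 and were not called, among them Cyp3a11 at 0.49 (SE 0.585, adjusted p = 0.549).

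Cyp2c70 fell by 1.16 (SE 0.35, adjusted p = 0.0271 from limma), from 6.60 ± 0.65 to 5.44 ± 0.56 (SD, n = 5). Its call was lost in 12 of 25 alternatives (adjusted p up to 0.323), among them those with the row as a block (-0.93), with the mean of mouse 3717 (-1.01) and without 3717 T1, 3717 T2 or 5283 T7 (-1.04, -0.98 and -0.94). The pseudogene Cyp2d37-ps fell by 1.31 (SE 0.41, adjusted p = 0.0293), and its call was lost in 15 of 25 alternatives, 7 of them fits that each left out 1 tumor. Cyp2t4 read -1.64 to -1.21 in the controls and -2.63 to -2.28 in p53LKO HCC, where 5283 T7 was not above background. It was the one of these 8 genes whose groups did not overlap, as they did not for 9.64% of all genes in this direction and 8.55% in the other (log2 fold change -1.06, SE 0.15, adjusted p = 5e-04), although its difference was under 2-fold after normexp and quantile normalization (-0.78 and -0.70). The 2 remaining calls, Cyp2b23 and Cyp11b1 (an adrenal enzyme of corticosteroid synthesis), were dim. Both were above background on 3 p53f/f arrays, 2 of them the tumors of mouse 3717, and on 0 p53LKO arrays. With that mouse counted once neither passed the filter. The mean of the p53f/f arrays takes in those not above background, so that the size of the Cyp11b1 and Cyp2b23 differences is not measured.

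The other 77 genes were not called. The Ah receptor targets Cyp1a1 and Cyp1b1 differed by 2.20 (SE 1.07, adjusted p = 0.136) and 1.99 (SE 0.89, adjusted p = 0.108, above background on 3 of 5 p53f/f arrays), and the male-biased Cyp4a12a and Cyp4a12b by -2.22 (SE 1.60, adjusted p = 0.309) and -2.41 (SE 1.70, adjusted p = 0.298), none of them called. Without p53f/f HCC 3717 T1, Cyp1a1 was (2.92, adjusted p = 0.0496). Cyp4f14, a fatty acid and leukotriene hydroxylase, stood at the edge with 1.86 (SE 0.66, adjusted p = 0.0501) and was called in 7 of 25 alternatives. All 9 tested Cyp2d genes other than Cyp2d37-ps lay between -0.95 and 0.32 and were not called. By role, 1 of 6 bile acid genes was higher (Cyp39a1), 1 of 9 CAR and PXR targets was lower (Cyp3a25), 1 of 4 genes of sterol and steroid synthesis was lower (Cyp11b1), and 0 of 3 Ah receptor targets, 0 of 4 PPARA targets and 0 of 4 male-biased genes were called. Scaling to the spike-in controls in place of the 75th percentile raised the median of all genes to 0.83, and then 17 P450 genes were called higher and 0 lower, so the direction of small differences here rests on the scaling. The share of higher genes among all called genes was 37.6% with the 75th percentile, 54.2% after normexp, 46.8% after quantile normalization, 16.3% with the percentile over probes above background on every array, and 91.3% with spike-ins.

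**Figure D2:**
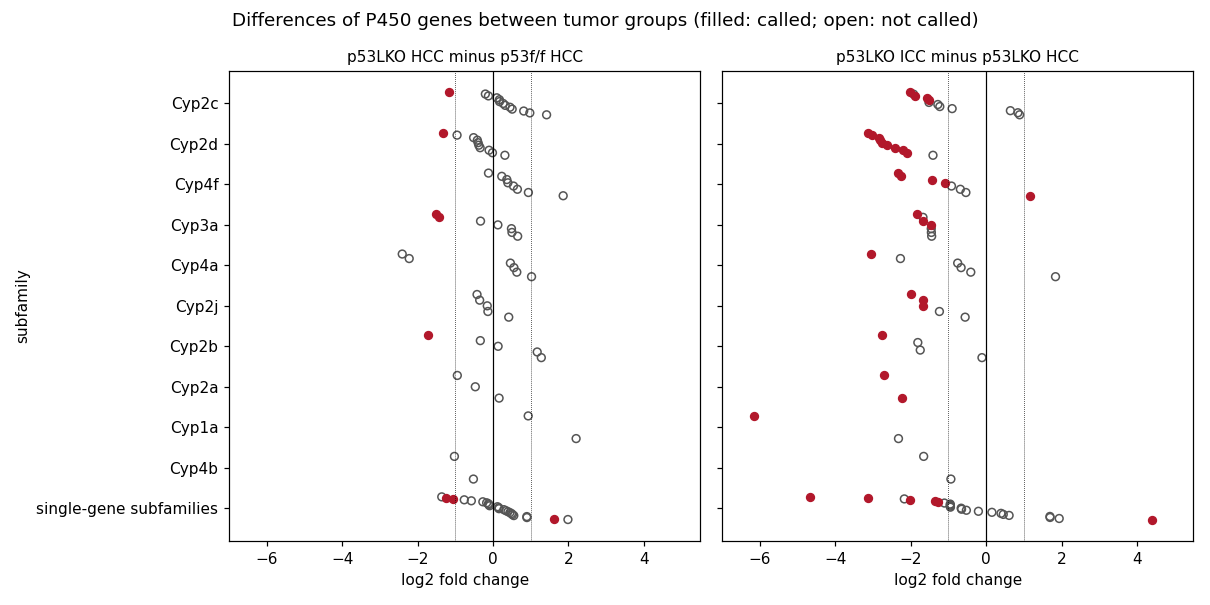
Log2 fold changes of the tested P450 genes by subfamily, left for p53LKO HCC minus p53f/f HCC and right for p53LKO ICC minus p53LKO HCC, with called genes filled, others open, and dotted lines at a 2-fold difference. The left points scatter around 0, and on the right 68 of 81 points lie below 0, with 9 of 10 Cyp2d genes called.

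The second comparison asked how ICC differ from HCC of the same genotype. It shares the p53LKO HCC with the first, so the values of both are given side by side and not set against each other. Many P450 genes were lower in ICC. Of the 81 tested, 33 were lower (40.7%) and 2 higher (2.47%), against 15.5% lower and 12.3% higher of all 16141 genes tested. The median log2 fold change was -1.45 for the P450 genes and -0.19 for all genes. The filter passed 13 of the 81 through the HCC alone. Of the 68 genes above background on at least 3 arrays of both groups, 30 were lower and 2 higher. The hepatocyte markers moved the same way, with 5 of 8 lower and a median of -1.70, while 4 of 7 tested bile duct and 5 of 7 stellate and fibroblast markers were higher. Of the 4 bile duct markers, Epcam and Krt7 were above background on 0 and 1 of 5 p53LKO HCC and passed the filter through the ICC alone, and Krt19 and Spp1 were above it on all arrays of both groups. The part of hepatocyte content in the lower P450 levels was not tested. The share of higher genes among all called genes was 44.3% with the 75th percentile, 41.6% after normexp, 47.4% after quantile normalization, 45.4% with spike-ins, and 68.3% with the percentile over probes above background on every array, which moved the median of all genes to 0.18 and that of the P450 genes to -1.08.

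Cyp1a1, the classical target of the Ah receptor and an oxidizer of aromatic hydrocarbons, was lower in ICC. It read -1.26, 0.70, 0.25, 2.59 and 4.04 in p53LKO HCC and -4.55, -5.0, -5.06, -4.90 and -4.92 in ICC (3731 T3, 3733 T3, 3976 T8, 3977 T5 and 5283 T20). No ICC was above background, whereas all HCC were, and they differed among themselves by over 5 units. The difference was at least 15.8-fold. The fitted log2 value of -6.15 (SE 0.80, adjusted p = 0.000281 from limma) was measured against background in ICC and has no rank among those of the other genes. In p53f/f HCC it read -2.0, -0.03, -2.15, 1.92 and -2.43. The probe lies at chr9:57551535-57551594 (mm9, plus strand).

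Cyp1b1, a hydroxylase of estradiol and aromatic hydrocarbons that is mostly used outside hepatocytes, moved in the opposite direction. Its probe lies at chr17:80106547-80106606 (mm9, minus strand). It read -1.89, -0.95, -0.08, -2.74 and -0.72 in p53LKO HCC and 3.55, 3.31, 3.12, 2.45 and 3.21 in ICC. Every ICC lay above every HCC, p53f/f HCC included, where it read -2.02, -2.05 and -1.49 in 3715 T2, 3716 T1 and 3717 T2 and was not above background in the other 2. It rose by a log2 fold change of 4.40 (SE 0.45, 21.2-fold, adjusted p = 7.58e-05 from limma), and the exact permutation test over the 252 splits of the 10 arrays gave the smallest p it allows, 0.00794. The third target, Cyp1a2, differed by -2.33 (SE 0.88, adjusted p = 0.0505) and was not called, although it was in 7 of 23 alternatives, such as without ICC 3977 T5 (-2.73, adjusted p = 0.0341). The Ah receptor gene itself was higher in ICC by 2.05 (SE 0.39, adjusted p = 0.00206), and Arnt, its partner, differed by 0.42 (adjusted p = 0.0713).

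**Figure D3:**
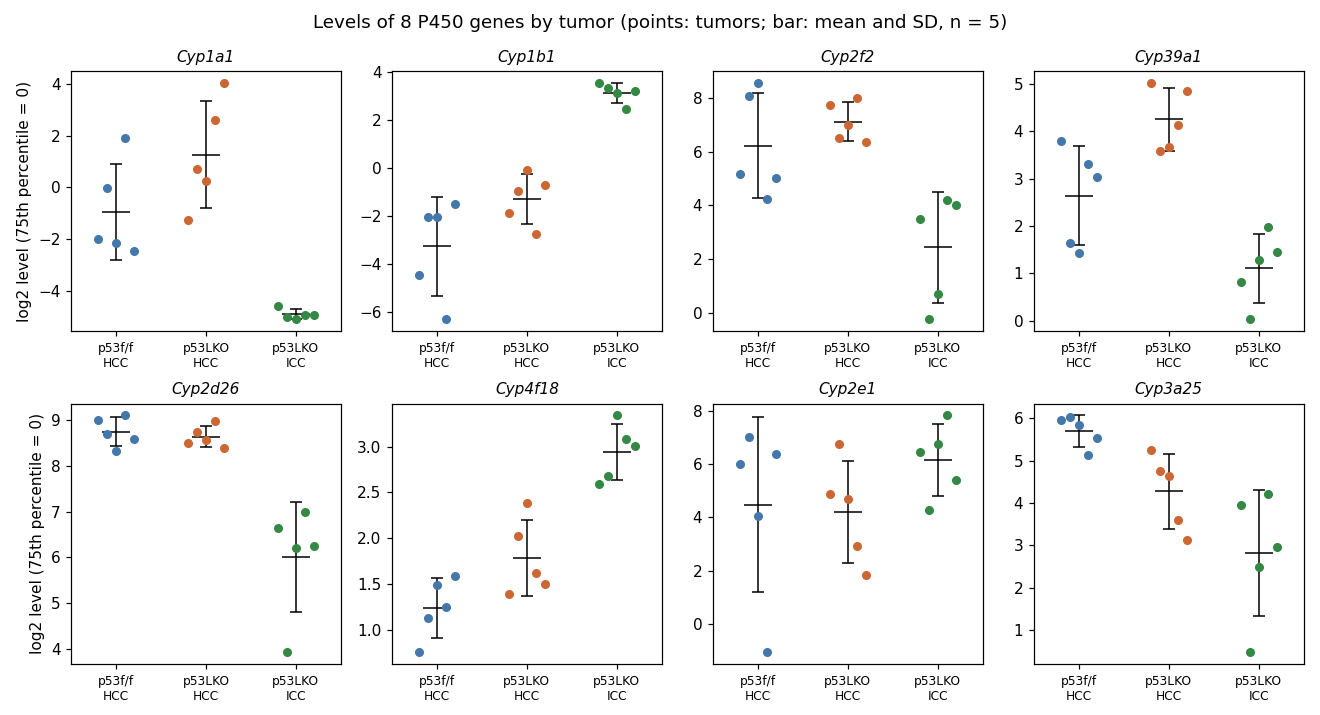
Levels (log2 signal relative to the 75th percentile of the array) of 8 P450 genes in each tumor, with bars for the mean and SD of the 5 tumors of a group. All ICC of Cyp1a1, Cyp2f2, Cyp39a1 and Cyp2d26 lie below all p53LKO HCC, all ICC of Cyp1b1 and Cyp4f18 above them, and the groups overlap for Cyp2e1 and Cyp3a25.

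The Cyp2d subfamily, which holds debrisoquine hydroxylases and their relatives in a gene cluster on chromosome 15, was lower almost throughout. In ICC, 9 of its 10 tested genes were lower, by 2.11 to 3.13 on the log2 scale, and none of these 9 overlapped between the groups. Groups did not overlap for 27 of the 81 tested P450 genes (33.3%) with ICC below HCC, against 20.3% of all genes, and for 23 of the 33 P450 genes called lower (69.7%), against 80.5% of all genes called lower. With ICC above HCC it was 2 P450 genes, against 10.4% of all genes. Cyp2d26 read 8.51, 8.75, 8.58, 8.98 and 8.40 in p53LKO HCC and 6.65, 3.92, 6.21, 7.0 and 6.25 in ICC. The 5 HCC spanned 0.58 and the ICC 3.08, with 3733 T3 far below the other 4. It fell by 2.64 (SE 0.49, adjusted p = 0.00174 from limma), and without 3733 T3 by 2.12. Cyp2d9, a steroid 16-alpha-hydroxylase of male liver, fell from 4.21 ± 0.94 to 1.08 ± 1.18 (SD, n = 5; log2 fold change -3.13, SE 0.59, adjusted p = 0.00197). Cyp2d12, Cyp2d40, Cyp2d22, Cyp2d11, Cyp2d34, Cyp2d13 and Cyp2d10 fell by 3.03, 2.84, 2.83, 2.77, 2.41, 2.22 and 2.11. The tenth gene, Cyp2d37-ps, differed by -1.41 (SE 0.55, adjusted p = 0.0557) and was not called. The promoters of Cyp2d9 and Cyp2d26 printed above belong to the 5 of these genes for which the table held one.

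The P450 genes of the periportal and pericentral zones were counted apart. Cyp2f2, a marker of periportal hepatocytes with a probe at chr7:27918570-27918629 (mm9, plus strand), read 7.72, 6.5, 6.98, 8.01 and 6.37 in p53LKO HCC and 3.5, -0.26, 0.70, 4.20 and 4.02 in ICC. All ICC lay below all HCC, with 3733 T3 and 3976 T8 the lowest. It fell by 4.68 (SE 0.85, 25.7-fold, adjusted p = 0.00155 from limma), and without 3733 T3 the log2 fold change was -4.01. Of 8 periportal genes, 4 were lower in ICC, Cyp2f2, Sds, Ass1 and Cdh1.

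Of 9 pericentral P450 genes tested, 2 were lower in ICC, Cyp2c29 by 1.57 (SE 0.52, adjusted p = 0.0309) and Cyp3a11 by 1.67 (SE 0.59, adjusted p = 0.0394), and 0 higher, but the median was 0.64, against -1.45 for all P450 genes. Both calls were lost under the row as a block (-1.36 and -1.96) and in 3 and 6 of the 10 fits that left out 1 tumor. The median of 0.64 is the value of Cyp2c37, for which a second probe read -1.15. The summed level of the 9 genes was 7.15 to 8.99 in p53LKO HCC (median 8.77) and 5.48 to 8.98 in ICC (median 8.10). Cyp2e1, which activates CCl4 and ethanol, read 4.86, 6.74, 4.67, 2.90 and 1.82 in p53LKO HCC and 6.46, 4.27, 6.75, 7.82 and 5.38 in ICC. The groups overlapped, and the difference of 1.94 (SE 0.90) did not pass the test (adjusted p = 0.101 from limma), although it did without HCC 5283 T7, at 2.57, and with the slide as a block, at 2.29 (adjusted p = 0.046). Within row 2 of the slides alone it was 0.33. Cyp2c37, Cyp2c50 and Cyp2c54 (0.64, 0.89 and 0.84) and Cyp7a1 (1.70, SE 0.78, adjusted p = 0.096), the rate-limiting enzyme of bile acid synthesis, were not called (Cyp7a1 was without HCC 5283 T7, at 2.31, and with the slide as a block, at 2.09), and neither was Cyp8b1, which was above background on 2 of 5 ICC arrays, at 0.61 (SE 1.06). Further probes disagreed for 2 of these, with -1.15 for a second Cyp2c37 probe and -0.85 for another Cyp2c54 probe, neither of them called. Of 9 other pericentral genes 4 were called higher in ICC, Oat, Slc1a2, Lhpp and Lgr5, and 0 lower, where Lgr5 was above background on 2 of 5 HCC and so passed the filter through the ICC alone, while Glul differed by 0.22 (adjusted p = 0.704).

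In p53LKO against p53f/f HCC the pericentral P450 genes had a median of -0.12 and 0 of 9 were called. The periportal Cyp2f2 differed by 0.90 (SE 0.81, adjusted p = 0.416). Tumors of 1 mouse could differ widely. Mouse 3717 carried a tumor T1 with Cyp2e1 at -1.06 and a tumor T2 with 6.39, and the same pair read 0.35 and 4.21 for Cyp2c54 and 1.92 and -2.43 for Cyp1a1. Cyp7a1 was not above background in T1 and read -2.27 in T2. Cyp2d26 was 9.11 and 8.59 in them. Over the 84 P450 genes measured in p53f/f HCC the median absolute difference of this pair was 0.64, and 29 genes differed over 2-fold. The 9 pairs of tumors from different mice had medians of 0.55 to 1.29 and 24 to 47 such genes, so the pair from 1 mouse lay within the range of pairs from different mice. However, 3717 T1 was on slide 1 and 3717 T2 was the only p53f/f HCC on slide 2, so tumor and slide cannot be told apart in this pair.

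**Figure D4:**
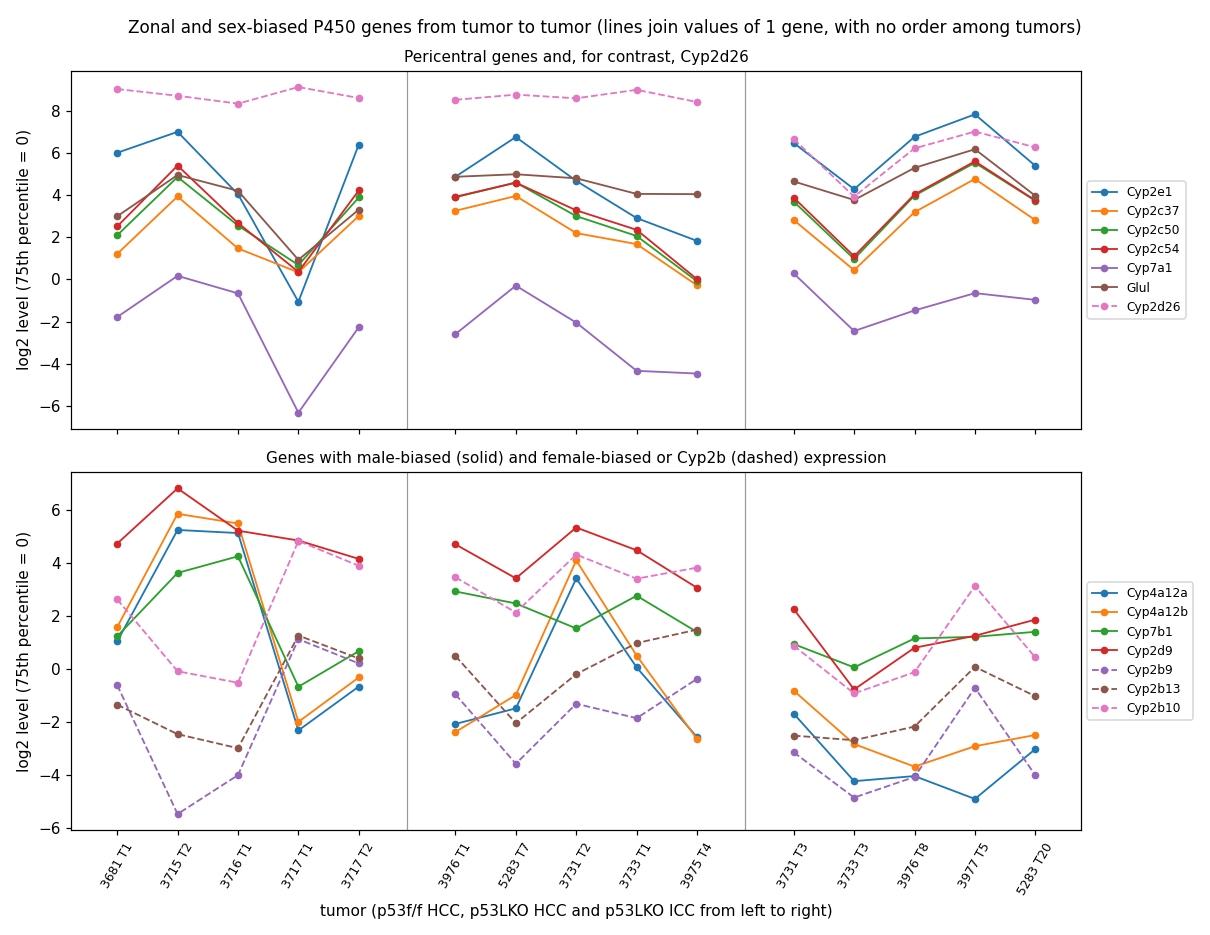
Levels (log2 signal relative to the 75th percentile of the array) of pericentral genes with Cyp2d26 for contrast (upper panel) and of sex-biased and Cyp2b genes (lower panel) in each of the 15 tumors, with lines that only join the values of a gene. Cyp2e1, Cyp2c37, Cyp2c50, Cyp2c54 and Cyp7a1 are each lowest of their group in p53f/f HCC 3717 T1, p53LKO HCC 3975 T4 and ICC 3733 T3, with Cyp7a1 below background in the first of these, and Cyp4a12a and Cyp4a12b are high in p53f/f HCC 3715 T2 and 3716 T1 and p53LKO HCC 3731 T2.

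Among the enzymes of bile acid synthesis, 2 of 6 were lower in ICC and 0 higher. Cyp39a1 read 0.82, 0.03, 1.28, 1.98 and 1.45 in ICC, below all 5 p53LKO HCC, and fell by 3.14 (SE 0.40, 8.85-fold, adjusted p = 0.00023 from limma). Cyp7b1, the oxysterol 7-alpha-hydroxylase, fell by 1.27 (SE 0.36, adjusted p = 0.0156). Cyp27a1, the mitochondrial sterol 27-hydroxylase, differed by -1.11 (SE 0.61, adjusted p = 0.162) and Cyp46a1, the cholesterol 24-hydroxylase, by -0.95 (SE 0.20, adjusted p = 0.00381), which was under the 2-fold limit.

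The genes of drug oxidation that answer to the receptors CAR and PXR were lower in 4 of 9 cases. Cyp2b10, the usual CAR target, read 3.47, 2.14, 4.33, 3.42 and 3.83 in p53LKO HCC and 0.88, -0.92, -0.12, 3.14 and 0.44 in ICC. ICC 3977 T5 reached the level of the HCC and the other 4 lay below them. It fell by 2.75 (SE 0.67, adjusted p = 0.00771 from limma), and the call was lost with the row as a block (-2.12, adjusted p = 0.0978). Cyp3a13 fell by 1.46 (SE 0.35, adjusted p = 0.00726) without overlap, and the other calls were Cyp2c29 and Cyp3a11. Cyp2c55 at -1.93 (adjusted p = 0.0585) and Cyp3a25 at -1.45 (adjusted p = 0.099) were not called, although Cyp3a25 was with the mouse as a block (-2.09, adjusted p = 0.0208). Cyp2c70, one of the genes whose promoter is printed above, differed by -1.23 (adjusted p = 0.0946).

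In the Cyp2c subfamily, 4 of 12 tested genes were lower in ICC, Cyp2c29, Cyp2c44, Cyp2c67 and Cyp2c68, by 1.52 to 2.02, and Cyp2c44 is now named Cyp2c23 in RefSeq. The Cyp2c44 call was lost in 11 of 24 alternatives. In the Cyp3a subfamily, 3 of 7 were lower, Cyp3a11, Cyp3a13 and Cyp3a41b, and all 7 lay between -1.83 and -1.45. Cyp3a41b differed by -1.83 (SE 0.67, adjusted p = 0.0456), and its call was lost in 18 of 24 alternatives (adjusted p up to 0.298), as that of Cyp3a11 was in 17. Of the 8 genes with CAAAGTCCA in the promoter 7 were tested in this comparison, with 4 lower and a median of -1.52, against -1.45 for all P450 genes. Both tested Cyp2a genes were lower. Cyp2a12 fell by 2.71 (SE 0.64, adjusted p = 0.00658) and Cyp2a4, a steroid 15-alpha-hydroxylase, by 2.24 (SE 0.42, adjusted p = 0.00181). Cyp2a4 read 9.09, 7.62, 8.92, 9.44 and 8.58 in p53LKO HCC and 6.02, 6.37, 6.22, 5.97 and 7.85 in ICC, where 5283 T20 stood above the other 4 and above the HCC of its own mouse.

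Fatty acid hydroxylases and epoxygenases gave a mixed picture. Of 8 tested Cyp4f genes 4 were lower, Cyp4f14, Cyp4f13, Cyp4f17 and Cyp4f39. For Cyp4f39 no ICC was above background, and neither was HCC 5283 T7, so that the size of its difference is not measured. Cyp4f18, which hydroxylates leukotriene B4 in myeloid cells, was higher. It read 1.39, 2.03, 2.38, 1.62 and 1.5 in p53LKO HCC and 2.60, 2.68, 3.34, 3.09 and 3.01 in ICC, without overlap. The log2 fold change was 1.16 (SE 0.23, adjusted p = 0.00266 from limma), and with the mouse as a block it was 1.05 (adjusted p = 0.0537). Beside it, 1 of 5 macrophage markers was higher in ICC, Lyz2 (log2 fold change 2.99), and the summed level of the 5 was 5.81 to 6.82 in p53LKO HCC and 6.08 to 6.71 in ICC. The part of myeloid cells in the Cyp4f18 level was not tested. Both Cyp4f18 probes were called higher (1.16 and 1.07), and both share 49 or more aligned bases with a probe of an unnamed transcript.

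The PPARA targets Cyp4a10, Cyp4a14, Cyp4a31 and Cyp4a32 differed by -0.66, 1.84, -0.76 and -0.41, and 0 of the 4 were called, with adjusted p values from 0.182 for Cyp4a14 to 0.748. Cyp4a14 ranged from -1.32 to 3.87 in p53LKO HCC and from 0.50 to 5.63 in ICC. Of 5 Cyp2j genes, arachidonic acid epoxygenases, 3 were lower, Cyp2j6, Cyp2j8 and Cyp2j13, by 1.99, 1.68 and 1.68. The probes of Cyp2j13 disagreed, for a second and dimmer probe was called higher, at 1.91 (adjusted p = 0.00401). Cyp4v3, a fatty acid hydroxylase, fell by 2.02 (SE 0.27, adjusted p = 0.000313).

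Of the tested genes of sterol and steroid synthesis 1 of 3 was lower in ICC, and 0 of 2 of vitamin D and 0 of 2 of retinoic acid metabolism were called. Cyp51, the lanosterol demethylase of cholesterol synthesis, fell by 1.35 (SE 0.29, adjusted p = 0.00363 from limma) without overlap. With the mouse as a block it was -1.15 (adjusted p = 0.0611). Cyp17a1 differed by -0.95 (SE 0.21, adjusted p = 0.00506), under the 2-fold limit (-1.03, adjusted p = 0.0478 with that block), and Cyp21a1 by -2.17 (SE 0.85, adjusted p = 0.0576), which was called in 6 of 24 alternatives, such as without HCC 5283 T7 (-2.84, adjusted p = 0.0102). Cyp2r1, the main vitamin D 25-hydroxylase, differed by -0.95 (SE 0.20, adjusted p = 0.00324), while its second probe was called at -1.36. With the mouse as a block the first was called too (-1.13, adjusted p = 0.0183). Cyp26b1, which clears retinoic acid, differed by 1.69 (SE 0.65, adjusted p = 0.0519) and was called higher in 8 of 24 alternatives, such as without ICC 3733 T3 (2.05, adjusted p = 0.0278). Cyp26a1 differed by 0.39 (SE 1.14).

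The P450 genes that differ between the sexes in mouse liver had wide ranges within the groups. Cyp4a12a read 1.04, 5.26, 5.14, -2.32 and -0.66 in the controls, -2.08, -1.49, 3.43, 0.06 and -2.58 in p53LKO HCC and -1.69, -4.24, -4.05, -4.92 and -3.03 in ICC. Only 3715 T2 and 3716 T1 of the controls and 3731 T2 of the p53LKO HCC were above 3. Cyp4a12b read 5.87, 5.5 and 4.11 in the same 3 tumors and at most 1.58 in the others. Of the 4 male-biased genes, Cyp2d9 and Cyp7b1 were lower in ICC and above background on all arrays of both groups. Cyp4a12a was also called lower (log2 fold change -3.05, SE 1.05, adjusted p = 0.0349), but it was above background on 1 of 5 ICC arrays and passed the filter through the HCC alone, so that the size of its difference is not measured. Its call was lost with the row as a block and in 4 of 10 fits that left out 1 tumor. Of 8 tested female-biased genes 3 were lower, Cyp2a4, Cyp39a1 and Cyp3a41b, the last with the call that was lost in most alternatives. With the mouse as a block Cyp3a16 (-2.02, adjusted p = 0.0433) was called lower as well. So were Cyp4a12b (adjusted p = 0.0265) and Cyp2b9 (adjusted p = 0.0271), which were above background on 2 and 1 of the 5 ICC arrays, so that the size of their differences is not measured either. The female-biased Cyp2b9 was not above background in 3715 T2 and 3716 T1 and read -0.61, 1.13 and 0.21 in the other p53f/f HCC. Cyp2b13, above background on all 5 of these arrays, was lowest in the same 2 tumors, at -2.47 and -3.0.

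The partners of the P450 enzymes were lower in ICC too. Of 7 electron donors and heme synthesis genes 6 were lower in ICC and 0 were called between the HCC groups. Por, the P450 oxidoreductase, read 6.36, 6.21, 6.31, 6.35 and 5.84 in p53LKO HCC and 4.73, 2.98, 4.38, 5.13 and 4.75 in ICC, a fall of 1.82 (SE 0.35, adjusted p = 0.00223 from limma) without overlap. Cyb5r3, Cyb5a and Cyb5b, the cytochrome b5 system, fell by 1.68, 1.5 and 1.38, Alas1, the first enzyme of heme synthesis, by 1.10, and Fdx1, the mitochondrial ferredoxin, by 1.09, while Fdxr differed by -0.76.

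Of 15 tested receptors and factors, 9 were lower in ICC and 1 higher, Ahr. Nr1i2, the gene of PXR, read 2.66, 3.51, 2.27, 2.28 and 2.63 in p53LKO HCC and 0.45, -1.69, 0.22, 0.09 and -1.06 in ICC, a fall of 3.07 (SE 0.42, adjusted p = 0.000355 from limma). Among the others, Ppara fell by 2.48, Nr0b2 by 2.14, Hnf4a by 2.03, Nr1h3 by 1.64, Nr1h4 by 1.48, Nr5a2 by 1.45 and Rxra by 1.16. Nr1i3, the gene of CAR, differed by -0.42 (adjusted p = 0.51) and Foxa2 by -0.41 (adjusted p = 0.116).

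The groups were unevenly spread over the array slides. All p53f/f HCC sat in row 1, all ICC in row 2, and the p53LKO HCC in both. Within row 2 alone, with 2 HCC and 5 ICC, 23 P450 genes were lower in ICC and 3 higher, and Cyp1b1, Cyp2f2 and Cyp39a1 differed by 4.55, -4.68 and -3.20, all called, as was Cyp1a1, with no ICC above background. Within slide 1 alone, with 2 HCC and 1 ICC, 8 were lower and 2 higher, a fit that assumes that the lone ICC varies like the HCC. With the mouse as a block, which rests on the 4 mice with both tumor types, 46 were lower and 1 higher. Within row 1 alone, with 5 p53f/f and 3 p53LKO HCC, 7 were lower in p53LKO HCC and 0 higher. The share of all genes called was not counted in these fits, so these numbers of calls cannot be set against that background.

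Of the genes with no role above, Cyp20a1, an orphan P450, differed by 0.49 between the HCC groups (adjusted p = 0.039) and by -0.65 in ICC (adjusted p = 0.0099), both under the 2-fold limit and both without overlap. Cyp2u1, a fatty acid hydroxylase, differed by -0.66 in ICC (adjusted p = 0.0237), again under that limit, and Cyp4b1 by -1.66 (adjusted p = 0.145), which was called with the mouse as a block (-2.87, adjusted p = 0.0124). Cyp2c38 stood at 1.42 between the HCC groups (adjusted p = 0.0647) and at -1.52 in ICC (adjusted p = 0.0635). The 13 genes that could not be tested were Cyp11a1, Cyp11b2, Cyp19a1, Cyp24a1, Cyp26c1, Cyp2ab1, Cyp2j11, Cyp3a44, Cyp4a29, Cyp4a30b, Cyp4f37, Cyp4f41-ps and Cyp4x1, which include steroid enzymes of adrenal and gonad and the vitamin D 24-hydroxylase Cyp24a1. Cyp2a5, Cyp3a41a, Cyp2c40 and Cyp2c69 were on the lists but have no probe under these symbols and were not analysed here.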

How the data were processed

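RNA of 15 whole tumors was hybridized by the authors to 1-colour Agilent SurePrint arrays, which were read with Agilent Feature Extraction 10.7.3.1 per the labels. The deposited intensity values (background-subtracted processed signal of each spot) were used. The deposited log2 table of the authors was centred separately for HCC and for p53LKO tumors, and served as an alternative within HCC only. Control spots were left out, spots of a probe averaged, and log2 intensities scaled to the 75th percentile of each array. Probes flagged as well above background on 3 or more arrays of either group were tested. Tests used limma 3.58.1 in R 4.3.3 with Benjamini-Hochberg adjustment over all probes tested. A gene was called at an adjusted p under 0.05 and a difference over 2-fold. With 5 arrays a group, their number limits the precision. Bounds ("at least N-fold") set the mean of the brighter group against the other, with each of its arrays at the higher of its own value and the lowest signal above background there. The exact permutation test was two-sided. On simulated data with 50 changed probes of each size, log2 changes of 2 were recovered for 88% (p53LKO against p53f/f HCC, 36031 probes) and 74% (ICC against HCC, 32644 probes).

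Genes named are the 8 called with the largest rise and fall in each comparison, the brightest of each subfamily and the members of role lists. The members and lists were chosen with earlier results of these data known. Other P450 genes with values, such as Cyp20a1, Cyp2u1, Cyp2c38, Cyp4v3 and Cyp2j6, were named after their values were seen. The mouse was tried as a block because HCC and ICC of 4 mice came from the same animal. Deviations of same-mouse tumors from their group means correlated at 0.066, 0.064, -0.142 and 0.06. Alternatives were other background corrections, scalings, filters, blocks, tests and probe choices, and leaving out each tumor. The within-slide and within-row fits were chosen after seeing the data. The Welch test of the authors' methods was also run. Individual values of 2 genes of the role lists are not reported here, nor are the list counts between p53LKO and p53f/f HCC that turn on them.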

Additional observations from a re-analysis of the deposited data

Results flagged for a closer look

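Within a group of 5 tumors, 1 tumor stood apart (its gap to the nearest of the others was over 0.71 of the group's range) in 12 of 190 groups tested, over 67 genes, and chance gives about 1 in 20. In p53LKO HCC, tumor 3975 T4 was the lowest for Cyp26a1 (-3.98, the others 0.98 to 2.18), Cyp27a1 (-0.31), Cyp3a11 (6.79), Cyp3a16 (3.83), Cyp3a41b (1.96) and Cyp4b1 (-2.35), and tumor 3733 T1 was the highest for Cyp2a12 (7.4). In ICC, tumor 3733 T3 was the lowest for Cyp2a12 (1.25, the others 4.18 to 5.06), Cyp2c44 (-0.39), Cyp2d26 (3.92) and Cyp2d34 (0.96), and tumor 5283 T20 was the highest for Cyp2a4 (7.85, the others 5.97 to 6.37). Tumor 3733 T3 also had the lowest Alb level of the ICC, 6.0.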

How the results depend on the processing

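Of the P450 genes, 1 was called higher and 7 lower in p53LKO against p53f/f HCC, and 2 higher and 33 lower in ICC. Genes higher in p53LKO HCC were 3 after normexp, 17 with spike-in scaling, 2 with all 15 arrays in 1 model, with the mean of the 2 tumors of mouse 3717 or with no fold limit, and 0 with the percentile over probes above background on all arrays, without a filter, with slide or row as a block, by the methods' t-test, and within slide 1, slide 2 or row 1. Leaving out 1 tumor gave 0 to 3. Genes lower in p53LKO HCC were 4 after normexp and with probes above background on every array, 0 with spike-in scaling, 1 by the methods' t-test and within slide 1, and 3 without a filter, with slide as a block, with all 15 arrays, with the mean of mouse 3717 and within slide 2, where 1 p53f/f HCC is assumed to vary like the 3 p53LKO HCC. Leaving out 1 tumor gave 3 to 8 (3 without 3717 T1 or 3717 T2, 4 without 3731 T2). Genes higher in ICC were 5 with slide as a block, 4 within slide 2 or with every probe counted, and 2 to 5 leaving out 1 tumor (5 without HCC 5283 T7). With the mouse as a replicate block, pairing the tumors of 4 mice, 1 was higher and 46 lower. Genes lower in ICC were 8 within slide 1 and 30 to 43 leaving out 1 tumor. Within slide 1, which holds 1 ICC and 2 p53LKO HCC, Cyp4a12a differed by 0.094 (adjusted p = 0.924), which gives no direction. No block could pair the HCC groups, which share no mouse. The share of all genes called was not counted for the blocked, within-slide, within-row and leave-one-out fits, so these counts have no background beside them. The cause of these shifts was not tested.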
